A study of Mus musculus with 8 samples.

Results

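The genes described here are those of the response to stress of the endoplasmic reticulum (ER) in mouse brain after methanol: Ddit3, Herpud1, Hspa5, Atf4, Xbp1, Trib3, Hsp90b1, Dnajb9, Sdf2l1 and Creld2. The 10 genes were given as a list of names, with no threshold on their values, and the list was drawn up with earlier results of these data known. Of them, 9 had a probe on the array, among 16593 named genes in all, and Sdf2l1 matched no probe by symbol, synonym or transcript. RNA of brain was hybridised to Illumina single-color bead arrays, 4 from mice given methanol and 4 from mice given normal saline. The labels give 120 mg/kg methanol in 350 µl or the same volume of saline, brain taken after 2 h and male mice, and name no route, while the methods describe male BALB/c mice, an inbred strain, that inhaled vapors from cotton wool soaked with methanol or water. The methods also have brain taken sooner than 2 h, groups of more than 4 mice, and RNA of homogenized whole brain from biological replicates. The exposure behind these arrays is therefore named as in the labels, and the groups are called methanol and saline. Whether each array holds the RNA of a single mouse is not stated in the sources used here, so the p-values cover only how these arrays scatter.

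Proteins that are secreted or placed in membranes fold in the ER. When unfolded proteins accumulate there, 3 sensors in the ER membrane start the unfolded protein response. The kinase PERK (Eif2ak3) phosphorylates eIF2, which slows translation but favors that of the transcription factor ATF4. ATF4 in turn drives CHOP (Ddit3) and Trib3. The nuclease IRE1 (Ern1) splices the mRNA of Xbp1, and ATF6 is cut in the Golgi to release a transcription factor. Spliced XBP1 and ATF6 act on chaperone and degradation genes through short promoter elements. PERK is only 1 of several eIF2 kinases, and ATF4 and CHOP also respond to lack of amino acids and to oxidative stress.

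Not all of the 10 genes hold exact matches to these elements near their start. The promoters of the pair of genes that passed the test after methanol are shown in full length up to the start. The sequences are from RefSeq (GRCm38.p6), each written from 5′ to 3′ on the strand of its gene, and all 10 genes had a promoter in that set. The ER stress element (ERSE) was searched as CCAAT, 9 bases and CCACG, ERSE-II as ATTGG, 1 base and CCACG, the XBP1 element as TGACGTGG, and the C/EBP-ATF element, which ATF4 binds, as TGATG, 1 base and AAT. Both strands were searched from 250 bases before to 50 bases after the start of transcription. The motif matched is in capitals. Only exact matches were counted, so a stretch that differs from a motif by 1 base is not marked. Herpud1 (chr8:94386179-94386428, + strand) held ERSE-II and Ddit3 (chr10:127290543-127290792, + strand) held none of the 4 motifs.
Herpud1: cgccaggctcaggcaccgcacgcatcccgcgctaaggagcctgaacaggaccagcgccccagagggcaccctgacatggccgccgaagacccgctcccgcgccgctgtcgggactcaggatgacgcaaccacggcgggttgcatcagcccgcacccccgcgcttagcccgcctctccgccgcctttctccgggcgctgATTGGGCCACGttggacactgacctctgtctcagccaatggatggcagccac
Ddit3: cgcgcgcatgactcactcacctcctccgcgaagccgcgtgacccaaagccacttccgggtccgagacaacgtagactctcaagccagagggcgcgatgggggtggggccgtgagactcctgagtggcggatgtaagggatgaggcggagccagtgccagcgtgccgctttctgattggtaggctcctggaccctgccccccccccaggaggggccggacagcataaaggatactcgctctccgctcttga

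ERSE stood in the promoters of 3 of the 10 genes, Hspa5, Hsp90b1 and Creld2. The matches are shown with their flanks, since ERSE is the element through which chaperone genes are known to respond. The positions are chr2:34772005-34772064 (+ strand) for Hspa5, chr10:86705617-86705676 and chr10:86705512-86705571 (- strand) for the matches of Hsp90b1, and chr15:88819500-88819559 (+ strand) for Creld2.
Hspa5: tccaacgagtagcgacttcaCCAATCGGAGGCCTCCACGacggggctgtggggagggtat
Hsp90b1, farther match: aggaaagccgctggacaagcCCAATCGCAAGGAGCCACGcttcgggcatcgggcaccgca
Hsp90b1, nearer match: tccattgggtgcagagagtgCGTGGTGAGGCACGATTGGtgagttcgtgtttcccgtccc
Creld2: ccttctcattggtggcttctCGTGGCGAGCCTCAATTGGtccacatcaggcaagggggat

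The match of Hspa5 began 65 bases before the start, those of Hsp90b1 212 and 107 bases before it, that of Creld2 126 bases before it and ERSE-II of Herpud1 52 bases before it. The nearer match of Hsp90b1 and that of Creld2 were on the strand opposite to the gene. Of 32851 promoters of the same length, 0.119% held ERSE, 0.0365% ERSE-II, 0.676% the XBP1 element and 0.965% the C/EBP-ATF element. No match to any of the 4 was in the windows of Ddit3, Atf4, Xbp1, Trib3, Dnajb9 and Sdf2l1, which says only that these letters are not in these windows.

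**Figure D1:**
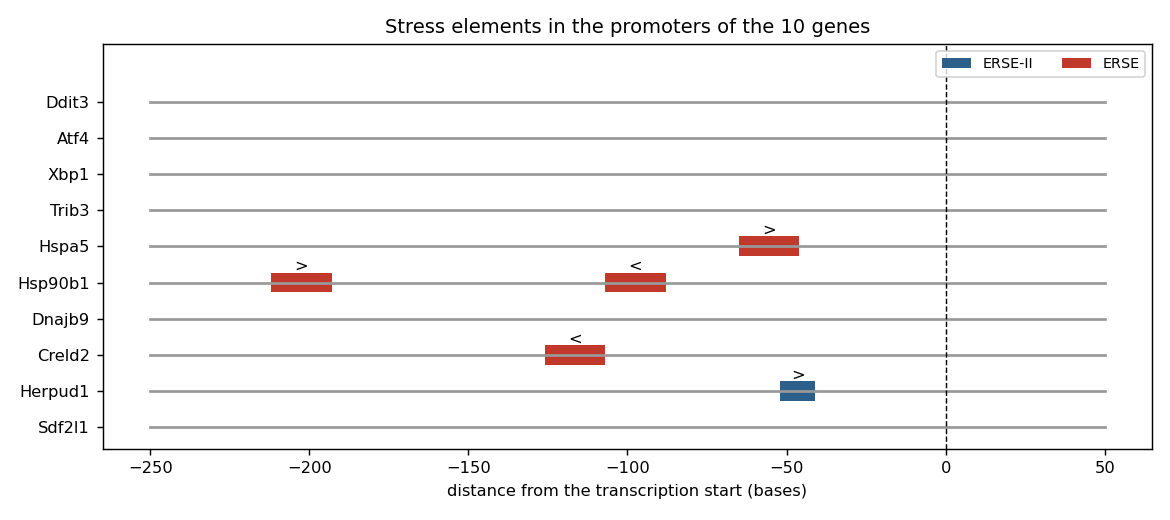
Position of ERSE (red) and ERSE-II (blue) in the promoters of the 10 genes, as distance in bases from the start of transcription (dashed line). Arrowheads give the strand relative to the gene, and matches were in the promoters of Hspa5, Hsp90b1, Creld2 and Herpud1.

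Before normalization the median intensity was 179.5 to 193.7 on the methanol arrays and 175.6 to 195.8 on the saline arrays. The mean intensity spread more in the methanol group, 369.4 to 493.9 against 407.9 to 436.9. Methanol replicate 1 had the highest mean of all 8 arrays and methanol replicate 4 the lowest. Probes detected numbered 11291 to 12366 per methanol array and 11855 to 12199 per saline array. Arrays of the same group correlated at 0.981 to 0.989 in log2 intensity, and those of different groups at 0.973 to 0.984. The sex in the labels was not borne out: Xist, the RNA of X inactivation, was detected on 8 of 8 arrays at a mean log2 intensity of 8.85 after methanol and 8.93 after saline, and the Y-linked Eif2s3y and Kdm5d on 0 of 8. Uty, also Y-linked, was detected on 3 of 4 methanol arrays and 1 of 4 saline arrays, with a log2 change of 0.23 (adjusted p = 0.505 from limma). Of the neuron markers Snap25, Tubb3 and Nefl were not detected on enough arrays to be tested, and 4 others were.

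Of the 9 ER stress genes measured, Ddit3 and Herpud1 rose after methanol, none fell and 7 did not pass the test. The rise was 1.32-fold for Ddit3 and 1.25-fold for Herpud1. A probe or gene was called changed at an adjusted p under 0.05 (limma, Benjamini-Hochberg over 11938 probes, each detected on 4 or more arrays), and the brightest probe stood for its gene. Over all 8528 genes tested, 3.4% were called higher and 2.52% lower. By probes, 4 of the 12 tested for the ER stress genes were higher and 0 lower (both probes of Ddit3 and both of Herpud1), where 3.12% of all tested probes were higher and 2.49% lower. Every methanol array was above every saline array for 5 of the 12 probes, the fifth being the brightest of Creld2, and none had every methanol array below. Among all tested probes these shares were 6.6% above and 5.77% below. The median log2 change of the 9 genes was 0.13, and 0.0037 over all genes tested, and 7 of the 9 were above 0, where 50.7% of all tested genes were. In RNA of whole tissue, fewer cells of a type and less RNA per cell cannot be told apart.

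**Figure D2:**
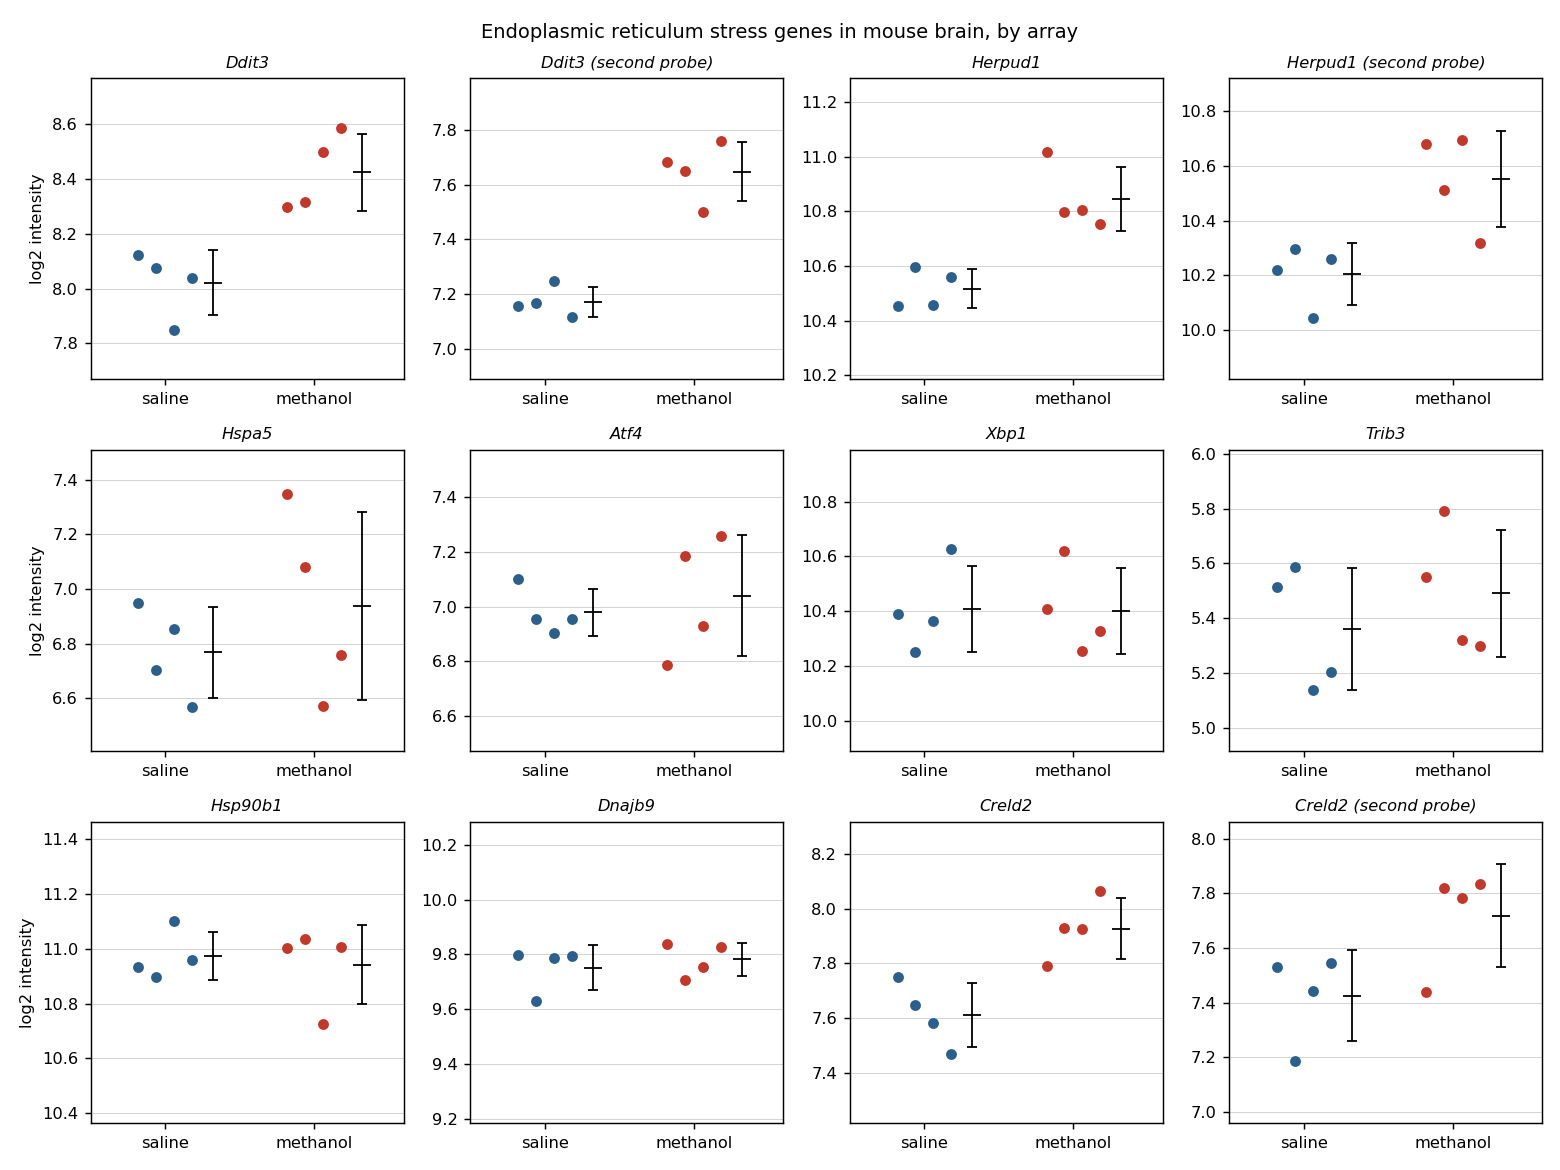
Log2 intensity of the 12 tested probes of the ER stress genes on each array (saline blue, methanol red, arrays 1 to 4 from left to right), with the mean and SD of 4 arrays beside the points. Each panel spans the same range of log2 units around its own center, and the groups do not overlap for both probes of Ddit3, both of Herpud1 and the brightest of Creld2.

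Ddit3 encodes CHOP, a transcription factor that promotes cell death when ER stress persists. Its brightest probe (ILMN_2652909) had log2 intensities of 8.30, 8.32, 8.50 and 8.59 on the methanol arrays and of 8.12, 8.08, 7.85 and 8.04 on the saline arrays. All methanol arrays were above all saline arrays, with methanol replicate 4 highest and saline replicate 3 lowest. This is a log2 change of 0.40 (SE 0.099, 95% interval 0.19 to 0.62, adjusted p = 0.0284 from limma). The other probe (ILMN_2927373) read 7.68, 7.65, 7.50 and 7.76 after methanol and 7.15, 7.17, 7.25 and 7.12 after saline. Again the groups did not overlap and methanol replicate 4 was highest. The difference of the means was 0.48 (SE 0.098, limma adjusted p = 0.0104). The exact permutation test over arrays gave p = 0.0286 for either probe, two-sided, the smallest p that 4 against 4 arrays can give. The size of the change depended on the background: without its correction it was 0.27 for the brightest probe and 0.26 for the other, still past the threshold (adjusted p = 0.0262 and 0.0088 from limma). The call of the brightest probe was lost, at a log2 change of 0.35 to 0.42, without methanol replicate 3 or 4 or saline replicate 2, 3 or 4. It was also lost with median scaling (0.40, adjusted p = 0.171 from limma) and without a variance trend (0.40, adjusted p = 0.0579). That of the other probe was lost with median scaling alone (0.45, adjusted p = 0.130 from limma). Ddit3 overlaps Mars1, the methionyl-tRNA synthetase, at its end, and the probes of Mars1 had log2 changes of 0.04 (adjusted p = 0.851 from limma) and 0.14 (adjusted p = 0.735).

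Atf4, the factor upstream of Ddit3, is regulated in large part at translation. Its probe (ILMN_1223734) read 6.78, 7.18, 6.93 and 7.26 on the methanol arrays and 7.10, 6.95, 6.90 and 6.95 on the saline arrays. The lowest and the highest array were both from the methanol group, and the groups overlapped. Their means differed by 0.06 on the log2 scale, with a 95% interval of -0.20 to 0.32 (adjusted p = 0.836 from limma).

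Trib3, a pseudokinase induced by ATF4 and CHOP, was close to the limit of detection. Its probe (ILMN_1252762) was detected on 2 of 4 arrays in each group, at 5.55, 5.79, 5.32 and 5.30 after methanol and 5.51, 5.59, 5.14 and 5.20 after saline, while the lowest detected signal of an array was 5.37 to 5.55. The groups overlapped, and replicates 1 and 2 were above replicates 3 and 4 in both. The log2 change of 0.13 had a 95% interval of -0.25 to 0.51 (adjusted p = 0.735 from limma).

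Xbp1, whose mRNA IRE1 splices, was at 10.41, 10.62, 10.26 and 10.33 on the methanol arrays and 10.39, 10.25, 10.36 and 10.63 on the saline arrays (ILMN_2431237). The groups covered the same range, from 10.26 to 10.62 and from 10.25 to 10.63. A log2 change of -0.01 was estimated, with a 95% interval of -0.21 to 0.20 (adjusted p = 0.983 from limma). The probe gives a single level for the gene, and splicing was not measured here.

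Herpud1 encodes a membrane protein that helps to bring misfolded ER proteins to degradation. The brightest probe (ILMN_2790241) had log2 intensities of 11.02, 10.80, 10.81 and 10.75 on the methanol arrays and of 10.45, 10.60, 10.46 and 10.56 on the saline arrays. The groups did not overlap, and methanol replicate 1 stood highest. The log2 change was 0.33 (SE 0.078, 95% interval 0.16 to 0.49, adjusted p = 0.0258 from limma). The other probe (ILMN_2790246) read 10.68, 10.51, 10.70 and 10.32 after methanol and 10.22, 10.30, 10.04 and 10.26 after saline. Here methanol replicate 4, which was the highest array for Ddit3, lay only just above the highest saline array, and it was the lowest methanol array for both probes of Herpud1. The log2 change of this probe was 0.35 (SE 0.094, adjusted p = 0.0438 from limma). The exact permutation p was 0.0286 for either probe, the smallest possible. Before background correction and normalization the groups overlapped for both probes of Herpud1, though not for those of Ddit3. The brightest probe of Herpud1 then had intensities of 1561.5 to 2818.6 after methanol and 1520.8 to 1729.4 after saline. Its other probe had 1174.3 to 2289.1 after methanol and 1189.3 to 1434.8 after saline. The call of the brightest probe was lost without methanol replicate 1 or saline replicate 3 or 4 (log2 change 0.27 to 0.34), with median scaling (0.35, adjusted p = 0.329 from limma) and without a variance trend (0.33, adjusted p = 0.0794). That of the other was lost under 9 of 17 alternatives, among them leaving out any array but methanol replicate 4, at log2 changes of 0.30 to 0.38.

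Creld2, a disulfide isomerase-like protein of the ER that is secreted, did not pass the test. The brightest probe (ILMN_2757368) read 7.79, 7.93, 7.92 and 8.06 after methanol and 7.75, 7.65, 7.58 and 7.47 after saline. The groups did not overlap, by a margin of methanol replicate 1 over saline replicate 1 that was small beside their ranges. Before background correction and normalization they did overlap, at intensities of 359.8 to 422.6 after methanol and 327.4 to 363.1 after saline. The log2 change was 0.32 (SE 0.099, 95% interval 0.10 to 0.53), with an adjusted p of 0.0813 from limma, 0.0531 to 0.416 over the 17 alternatives, and an exact permutation p of 0.0286. The other probe (ILMN_2983948) read 7.44, 7.82, 7.78 and 7.83 after methanol and 7.53, 7.19, 7.44 and 7.55 after saline. It overlapped through methanol replicate 1, and its log2 change was 0.29 (95% interval 0.04 to 0.55, adjusted p = 0.179 from limma). Without background correction the log2 change was 0.19 for the brightest probe and 0.16 for the other. Alg12, a mannosyltransferase of the ER and the neighbor of Creld2, had a log2 change of 0.15 (adjusted p = 0.371 from limma).

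The chaperones among the ER stress genes did not pass the test. Hspa5 encodes BiP, the Hsp70 chaperone that holds the sensors inactive, and its rise is a usual sign of the response. Its probe (ILMN_1255561) read 7.35, 7.08, 6.57 and 6.76 after methanol and 6.95, 6.71, 6.85 and 6.57 after saline. This probe was dim beside that of Hsp90b1, which read 10.73 to 11.10 over the 8 arrays. For Hspa5, methanol replicates 1 and 2 were above all saline arrays and the others within their range. The log2 change was 0.17, and its 95% interval of -0.17 to 0.51 was among the widest of the ER stress genes (adjusted p = 0.600 from limma).

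Hsp90b1 encodes GRP94, the Hsp90 chaperone of the ER. Its probe (ILMN_2504433) read 11.003, 11.03, 10.73 and 11.01 after methanol and 10.93, 10.90, 11.10 and 10.96 after saline. The groups overlapped, with methanol replicate 3 lowest. The log2 change was -0.03, with a 95% interval of -0.21 to 0.15 (adjusted p = 0.882 from limma).

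Dnajb9 encodes ERdj4, a co-chaperone of BiP that also holds IRE1 inactive. Its brightest probe (ILMN_2829636) read 9.84, 9.71, 9.76 and 9.83 after methanol and 9.80, 9.63, 9.79 and 9.79 after saline. The arrays lay closely together and the groups overlapped. It changed by 0.03 on the log2 scale, with the narrowest interval of the 9 genes, -0.13 to 0.19 (adjusted p = 0.871 from limma). A change of the size estimated for Ddit3 or Herpud1 was outside the intervals of Xbp1, Hsp90b1 and Dnajb9, just outside that of Atf4, and within those of Hspa5 and Trib3. The other probe of Dnajb9 (ILMN_1248003) was detected on 0 of 8 arrays and was not tested.

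**Figure D3:**
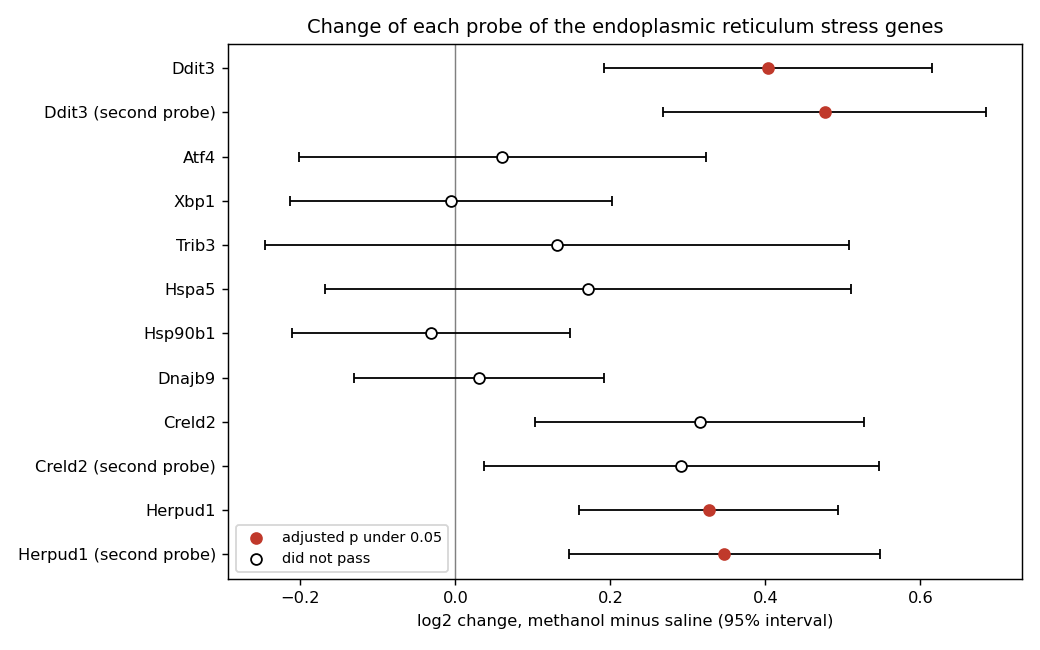
Log2 change from saline to methanol of the 12 tested probes, with the 95% interval from limma, ordered by role from transcription factors through chaperones to Herpud1. Filled red points passed the adjusted threshold, and the intervals of both Creld2 probes, which did not pass, are above 0 as well.

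Whether the transcript of Ddit3 or Herpud1 rose relative to the other ER stress genes was asked from the difference of log2 intensity between brightest probes on the same array, a comparison added after the values were seen. Of 14 pairs, 4 had every methanol array above every saline array. These were Ddit3 over Atf4, by 0.34 log2 units, Ddit3 over Hsp90b1, by 0.43, Ddit3 over Dnajb9, by 0.37, and Herpud1 over Hsp90b1, by 0.36. Each had an exact permutation p of 0.0286, two-sided, and of 0.10 when adjusted over the 14 pairs, so that no pair passed. Since 0.0286 is the smallest p the arrays allow, none could have passed unless most of the 14 pairs had reached it, and the numerators were chosen because they had risen, so these differences are a description. Ddit3 over Hspa5 differed by 0.23 (permutation p = 0.400, adjusted p = 0.431) and Herpud1 over Creld2 by 0.01 (permutation p = 0.971, adjusted p = 0.971).

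Other genes of the unfolded protein response were called, at the adjusted threshold, about as often as genes in general. Of 115 genes in 5 lists, 99 had a probe and 74 were tested, and of these 2 were higher, 1 was lower and 71 did not pass. These are 2.7% higher and 1.35% lower, beside 3.4% and 2.52% of all tested genes, and their median log2 change was 0.01. At an unadjusted p under 0.05 from limma there were 15 of the 74. The share of all tested genes at that limit was not counted. Vldlr, of the ATF4 and CHOP arm, had an unadjusted p of 0.049 and an adjusted p of 0.24 from limma. Under the Benjamini-Hochberg adjustment, such values mean that many more probes lay under the limit than the limit alone would give. The unadjusted counts are therefore not read as an excess. In the list of sensors and membrane-bound factors 0 of 5 tested genes passed (0 also at an unadjusted p under 0.05). Ern1, which encodes IRE1, and Atf6 were not among the tested genes, so PERK is the only sensor with a value. Eif2ak3, which encodes PERK, had a log2 change of 0.21 (adjusted p = 0.324 from limma) and Atf6b, a relative of ATF6, of 0.003 (adjusted p = 0.991). Among the 22 tested genes of the eIF2 kinases and the ATF4 and CHOP arm, 0 passed (5 at an unadjusted p under 0.05), and the median log2 change was 0.05. The values of this arm lay on both sides of 0, as the following genes show. Chac1, an enzyme that degrades glutathione and a target of ATF4, had a log2 change of 0.30 (adjusted p = 0.107 from limma), and Ppp1r15a, the phosphatase subunit through which CHOP restores translation, of 0.04 (adjusted p = 0.920). Asns, the asparagine synthetase, had -0.11 (adjusted p = 0.498 from limma), Slc7a11, the cystine transporter, -0.37 (adjusted p = 0.109), and Ddit4, an inhibitor of mTORC1 that glucocorticoids also induce, -0.35 (adjusted p = 0.0685).

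Of the 17 other folding factors tested, 1 rose and 16 did not pass, and the median log2 change was -0.01. At an unadjusted p under 0.05 from limma there were 5 of the 17. The gene that rose was Calr, calreticulin, a calcium-binding lectin that folds glycoproteins. It read 8.01, 8.14, 8.35 and 8.23 after methanol and 7.88, 7.85, 7.61 and 7.65 after saline. The groups did not overlap, and the log2 change was 0.43 (SE 0.10, adjusted p = 0.026 from limma), or 0.27 without background correction. The call was lost without methanol replicate 3 or 4 or saline replicate 3 or 4 (0.38 to 0.42) and with median scaling (0.42, adjusted p = 0.156 from limma). Of the 15 other degradation factors tested, 1 rose, 1 fell and 13 did not pass, with a median log2 change of 0.14. At an unadjusted p under 0.05 from limma there were 4 of the 15. The brightest probe of Edem2, which trims mannose from misfolded glycoproteins, rose by 0.35 (SE 0.087, adjusted p = 0.0295 from limma). The dimmer tested probes of Edem2 had log2 changes of -0.02 (adjusted p = 0.980) and 0.28 (adjusted p = 0.435 from limma), and the call of the brightest was lost under 8 of 17 alternatives, among them leaving out any array but methanol replicate 3 or saline replicate 1 (0.29 to 0.38). Vcp, the ATPase that extracts proteins from the ER membrane, fell by 0.42 (SE 0.070, adjusted p = 0.0026 from limma), with 10.82, 10.81, 11.001 and 10.84 after methanol and 11.31, 11.30, 11.24 and 11.28 after saline. Its groups did not overlap, and of the 17 alternatives median scaling alone ended the call (-0.41, adjusted p = 0.144 from limma). Herpud2, the relative of Herpud1, had a log2 change of 0.14 (adjusted p = 0.548 from limma). Of the 15 tested genes of translocation and export 0 passed (1 at an unadjusted p under 0.05), with a median of -0.06.

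**Figure D4:**
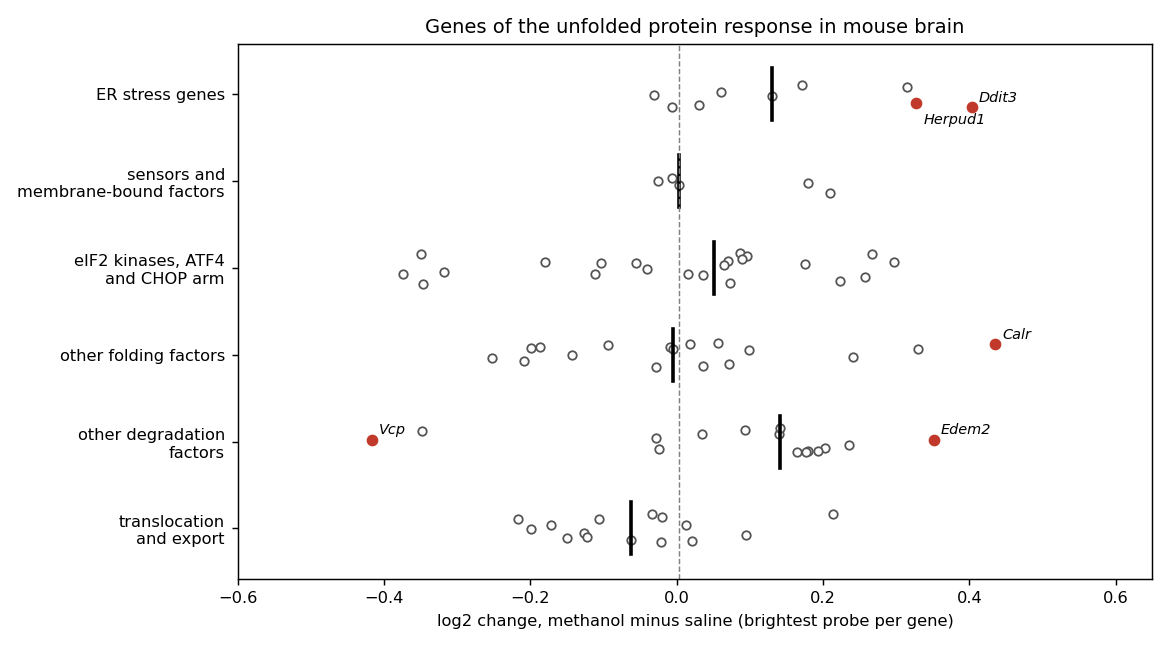
Log2 change from saline to methanol of each tested gene, by its brightest probe, in the ER stress genes and 5 lists of the same pathway. Black bars are medians, the dashed line is the median of all tested genes (0.0037), and the red points, named, passed the adjusted threshold.

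Read by promoter, 12 genes of these lists and of the ER stress genes held ERSE or ERSE-II, and 9 of them were tested. Calr and Herpud1 were higher, none was lower, and 7 of the 9 had a log2 change above 0, with a median of 0.24 and a range of -0.20 to 0.43. Over all tested genes 3.4% were higher and 50.7% above 0. The 9 genes come from lists drawn up with earlier results of these data known. Among all promoters 37 genes held ERSE, and those outside the lists were not read, so the comparison is a description only. The XBP1 element was in 7 genes of the lists, of which 5 were tested, 0 were higher and 1, Vcp, was lower, and 3 of the 5 were above 0, with a median of 0.06. The C/EBP-ATF element was in 3, of which only Nupr1, a stress-induced nuclear protein, was tested, with a log2 change of 0.09 (adjusted p = 0.773 from limma). Ddit3, with the largest log2 change of the ER stress genes, held no exact match to any of the motifs in its window. Near matches and sequence outside the window were not searched. Hsp90b1, with 2 matches, had a log2 change of -0.03, and Pdia6, a disulfide isomerase, one of -0.20 (adjusted p = 0.273 from limma). Dnajc3, a co-chaperone that inhibits PERK, held ERSE and had 0.33 (adjusted p = 0.144 from limma).

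Markers of other cells moved with the groups in which Ddit3 and Herpud1 were higher. Of 7 tested oligodendrocyte markers, 2 were higher (Mal by 0.60 and Cldn11 by 0.62 on the log2 scale, the call of Mal being lost under 6 of 17 alternatives) and 0 lower, and the summed linear intensity of the list was 26467 to 38032 on the methanol arrays and 17629 to 26113 on the saline arrays. The brightest of them, Mbp, makes up much of the sum and did not pass, at a log2 change of 0.41 (adjusted p = 0.0961 from limma). Mog, Mag, Mobp and Cnp had 0.04, 0.10, 0.20 and -0.16, with groups that overlapped. Methanol replicate 1 was the highest methanol array for each of the 7 markers and for the brightest probe of Herpud1. Without it that probe had an adjusted p of 0.0745 from limma. It was the lowest methanol array for the brightest probe of Ddit3, and not the highest for the other probe of either gene. Of 7 tested blood markers, 4 were lower, all of red cells (Hba-a1, Hbb-b2, Hbb-bt and Alas2), and the sum was 5346 to 6601 against 17206 to 22688. Of 3 tested choroid plexus markers 1 was lower, the sum being 432 to 922 against 315 to 22272, while the defining Folr1, Kcne2 and Sostdc1 were not detected on enough arrays to be tested. Saline replicate 3 stood apart here: Ttr, the transthyretin of choroid plexus, was at 10.58, 11.49, 14.39 and 7.52 on the saline arrays and at 8.39 to 9.66 on the methanol arrays. The same array had the lowest value of all 8 for the brightest probe of Ddit3, the other probe of Herpud1, Calr and Edem2. It was, however, the highest saline array for the other probe of Ddit3 (7.25). For the brightest probe of Herpud1 it read 10.46, with saline replicate 1 lower at 10.45. Without saline replicate 3 the log2 change was 0.35 for Ddit3 (adjusted p = 0.0941 from limma) and 0.50 for its other probe (adjusted p = 0.0218). That of Herpud1 was 0.31 (adjusted p = 0.0798 from limma). Of 6 tested microglia markers 1 was lower, P2ry12, whose call was lost under 8 of 17 alternatives (summed intensity 1514 to 1979 against 1968 to 2170). No marker passed among 4 of neurons (18714 to 20737 against 17079 to 21080), 7 of astrocytes (14604 to 15931 against 13850 to 15852) and 4 of endothelium (1427 to 1648 against 1475 to 1854). H2-Ea, a class II histocompatibility gene whose expression differs between inbred strains, fell by 1.66 (SE 0.20, adjusted p = 0.0002 from limma) and by 0.65 without background correction. It read 6.86 to 7.84 after saline and 5.26 to 6.12 after methanol, where 3 of 4 arrays detected it. The methanol values lay close to the lowest detected signals, so the size of this fall is uncertain. The part of these differences in the values of the ER stress genes was not tested.

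The adjusted p of Ddit3 and Herpud1 lay near the threshold under most settings. By their brightest probes, both genes were called under 7 of the 9 settings that kept all arrays, and neither with median scaling or without a variance trend. Among the 8 fits that left out an array in turn, both were called in 2, 1 of them in 4 and neither in 2, those without saline replicate 3 or 4. The other probe of Ddit3 was still called without a variance trend (adjusted p = 0.016 from limma). It was also called without saline replicate 3 (adjusted p = 0.0218 from limma) or 4 (adjusted p = 0.037).

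**Figure D5:**
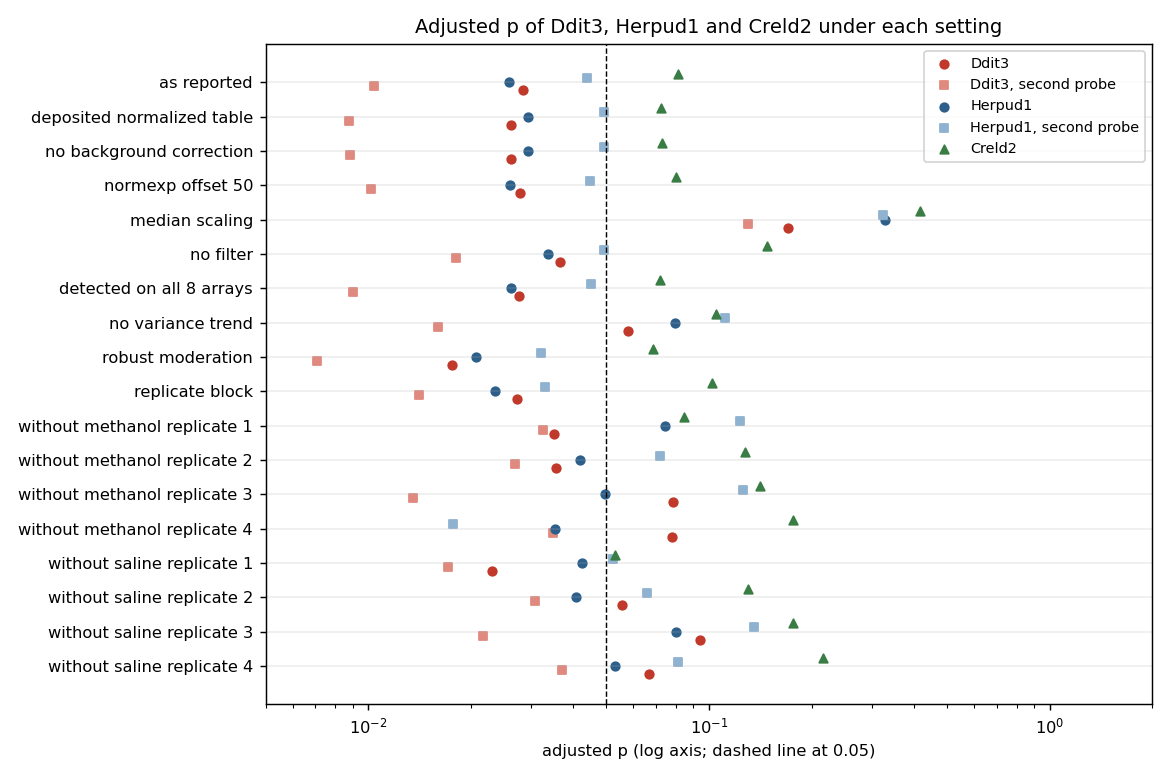
Adjusted p (log axis, dashed line at 0.05) of the probes of Ddit3 and Herpud1 and of the brightest probe of Creld2 under the reported setting and 17 alternatives. The second probe of Ddit3 stayed under 0.05 in all but median scaling, and Creld2 was above it in each.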

How the data were processed

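The authors deposited 2 tables for the same 8 arrays. The table titled non-normalized had columns of equal sorted intensity values, so these had been normalized between arrays before deposit, and a detection p-value per probe, as deposited. The methods name GenomeStudio and cubic spline normalization. The other deposited table held intensity values not normalized between arrays (medians 175.6 to 195.8), which were the start here. In R 4.3.3 with limma 3.58.1, normexp used the detection p-values to correct background (offset 16), followed by log2 and quantile normalization. Probes detected at p under 0.05 on at least 4 of 8 arrays were fitted with lmFit and eBayes with a variance trend, which was tested on simulated data. Exact permutation tests were run over the 70 divisions of the arrays. Of 25697 probes, 23978 had 1 gene in the platform annotation, 0 had several and 1719 none.

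All probes of the 10 genes were named, and of the pathway lists each gene that passed, at most 4 a list, with others to explain the pathway. Chac1, Ddit4, Slc7a11, Vldlr, Dnajc3, Asns, Pdia6, Nupr1, Uty, H2-Ea, Mars1 and Alg12 were named after their values were seen. The genes, lists and tests were chosen with earlier results of these data known. The number of arrays limits the precision. Background correction widens the changes of dim probes. Alternatives were the other table, background, offset, scaling, filter, variance moderation, the replicate number as a block and leaving out each array.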

Additional observations from a re-analysis of the deposited data

Results flagged for a closer look

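In 24 groups of 4 arrays, 1 for each tested probe and treatment, a single array stood apart from its group in 3 cases, its gap to the nearest array, as a share of the range of the group, being past the 95% limit of Dixon. Chance gives about 1 in 20 groups. For Hsp90b1 this was methanol replicate 3, at a log2 intensity of 10.73 with the nearest methanol array at 11.003. For Dnajb9 it was saline replicate 2, at 9.63 with the nearest saline array at 9.79. For the dimmer probe of Creld2 it was methanol replicate 1, at 7.44 with the nearest methanol array at 7.78.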

How the results depend on the processing

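The count of ER stress genes higher after methanol, 2 as reported, was 0 with median scaling, 0 without a variance trend and 0 to 2 on leaving out single arrays, and 2 in the other settings. The count lower was 0 in all. Genes of the 5 pathway lists, 2 higher and 1 lower as reported, were 0 and 0 with median scaling, 2 and 3 with robust moderation, 1 and 1 when no variance trend was used, 2 and 3 with the replicate block, and 0 to 2 and 1 to 2 on leaving out single arrays. Over all probes, 372 higher and 297 lower became 161 and 168 with median scaling, and 203 to 465 and 145 to 427 on leaving out single arrays. With the replicate number as a block they were 476 and 483, and the log2 change of Ddit3 stayed at 0.40 (adjusted p = 0.0273 from limma). Same-numbered arrays deviated together in some pairs and not in others. The correlations of their deviations from the group means were -0.11 to 0.25 and above 0.1 in 2 of 4 pairs. They were 0.18 and 0.25 for replicates 1 and 4, and -0.11 and -0.01 for replicates 2 and 3. Of the 4 methanol arrays, 2 correlated best with their own number. These values do not settle whether the numbers mark pairs. The methods name no pairing, so the numbers were not taken as pairs. Log2 changes close to 0 changed sign: Xbp1 was 0.0042 with median scaling and -0.078 to 0.066 on leaving out single arrays, Hsp90b1 -0.061 to 0.042, Atf4 -0.013 to 0.14 and Dnajb9 -0.011 to 0.055. Of 317 values for single probes under alternatives, 259 kept direction and side of the threshold, 50 lost the call and 8 changed sign. The cause was not tested. Sdf2l1 gave no value under any alternative, and Trib3 none where fewer arrays or the stricter filter removed its probe.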
